A study of Plutella xylostella with 12 samples.

Results

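The microRNA (miRNA) mir-278 of the diamondback moth Plutella xylostella was followed through both mature products of its hairpin, pxy-mir-278-5p and pxy-mir-278-3p, which are 2 of the 105 miRNA names found in 12 small RNA libraries. The pair was picked by name because earlier results of the same libraries had shown the 5p arm to differ between insecticide doses at 24 h and that difference to depend on time. The dose contrasts of either arm, their change with time and the time differences within a dose are therefore given as descriptions with standard errors and no test. The time difference averaged over doses was tested. It is balanced against the dose contrasts and their change with time, but not against the time differences within a dose, of which it is the mean.

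The libraries came from whole bodies of 3rd instar larvae of the Waite strain, an insecticide-susceptible population, and every larva had been exposed to chlorantraniliprole, a diamide insecticide that holds open the channel through which muscle releases stored calcium, the ryanodine receptor. The 4 groups were 0.01 ppm (low dose) and 0.1 ppm (high dose), each collected after 6 h and after 24 h, with 3 biological replicates per group according to the labels. RNA was taken only from larvae that were alive at collection, so larvae that died are not represented. Unexposed larvae were not analysed here. As whole larvae were used, a lower level in fewer cells and a lower level per cell cannot be told apart. Of the tissue markers looked for, the muscle miRNA pxy-mir-1-3p and both arms of miR-281, which is abundant in insect midgut and Malpighian tubule, were listed in all 12 libraries. The muscle marker was scarce, with 8 to 71 counts per library. The counts were 43 to 152 for pxy-miR-281-3p and 1311 to 5922 for pxy-miR-281-5p. The nervous system miRNA mir-124, the muscle miRNA mir-133 and the ovary miRNA mir-989 were not among the names.

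A miRNA hairpin is cut by Dicer into a short duplex whose strands, the 5p and the 3p arm, can each be loaded into an Argonaute protein. One arm usually accumulates and guides silencing while the other is degraded, and the ratio of the arms is used as a measure of arm choice and stability. Because the arms have different seeds, they have different potential targets. In Drosophila, mir-278 is known for its action in fat body, where its loss makes flies lean, with raised insulin production and raised circulating sugar, and it also affects tissue growth. That work concerns chiefly the 3p arm in flies, and no role of the 5p arm in this moth is assumed here.

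Total counts per library ran from 10714 to 30676 at 6 h and from 28682 to 41214 at 24 h, and no row held fewer than 5 counts. The shallowest library, low-dose replicate 2 at 6 h, held 10714 counts and the next, high-dose replicate 1 at 6 h, held 19692. No replicates were merged, since counts differed by more than sampling noise in each of the 12 pairs of libraries within a group.

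The 5p arm was most abundant in low-dose larvae at 24 h and least abundant in high-dose larvae at 24 h, with the 6 h groups between them. Levels are CPM, counts scaled to a common library size, after TMM scaling, a trimmed mean factor that sets libraries on a common scale. In low-dose larvae at 24 h the 3 libraries held 15610, 16790 and 15530 CPM of pxy-mir-278-5p (raw counts 539, 638 and 583), a mean of 15980 ± 703 (SD, n = 3). In high-dose larvae at 24 h they held 6924, 5025 and 6093 CPM (raw counts 201, 190 and 273), a mean of 6014 ± 952. These ranges were far apart, with the lowest low-dose library above the highest high-dose library.

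At 6 h the order of the doses was the opposite. The low-dose libraries held 7783, 10710 and 7398 CPM of pxy-mir-278-5p (raw counts 258, 113 and 163), a mean of 8629 ± 1809 (SD, n = 3). The high-dose libraries held 8983, 11910 and 13220 CPM (raw counts 178, 286 and 325), a mean of 11370 ± 2167. Here the groups overlapped, since the shallowest low-dose library exceeded the shallowest high-dose library.

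Ordered by mean, the 5p levels ran from low dose at 24 h through high dose at 6 h and low dose at 6 h down to high dose at 24 h. Neither the highest nor the lowest group overlapped with its neighbour, whereas the ranges of the 6 h groups overlapped. Within a library pxy-mir-278-5p ranked between 14 and 22 by summed count and took 0.55% to 1.55% of the counts.

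**Figure D1:**
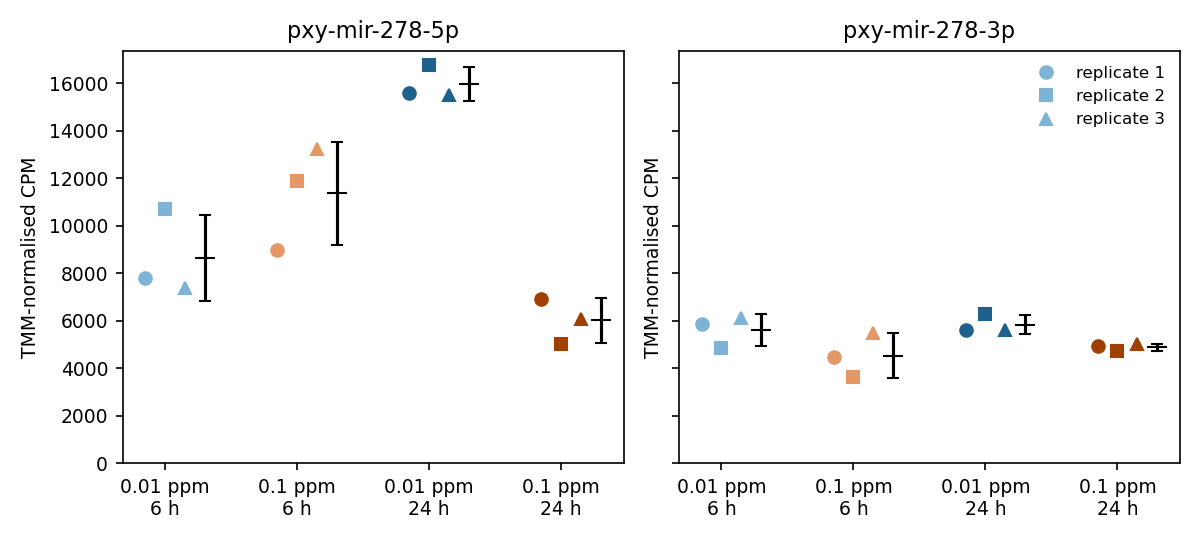
TMM-normalised CPM of pxy-mir-278-5p (left) and pxy-mir-278-3p (right) in the 4 dose and time groups. Symbols are libraries, and black bars are the group mean ± SD (n = 3). The 5p arm spans 5025 to 16790 CPM and is highest at 0.01 ppm and lowest at 0.1 ppm after 24 h, while the 3p arm stays between 3622 and 6289 CPM.

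The 3p arm spanned a narrower range. In low-dose larvae the libraries held 5882, 4832 and 6127 CPM of pxy-mir-278-3p at 6 h (5614 ± 688, SD, n = 3) and 5618, 6289 and 5622 CPM at 24 h (5843 ± 386). In high-dose larvae the libraries held 4492, 3622 and 5490 CPM after 6 h (4534 ± 935), and after 24 h they held 4926, 4734 and 5022 CPM (4894 ± 146). Both high-dose means lay below both low-dose means on this scale. The low-dose and high-dose ranges overlapped at 6 h and did not at 24 h.

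In order, the 3p means ran from low dose at 24 h through low dose at 6 h and high dose at 24 h to high dose at 6 h, and each group overlapped with its neighbour in that order. The raw counts behind these values were small, 51 to 195 per library at 6 h and 143 to 239 at 24 h. By summed count pxy-mir-278-3p ranked between 23 and 27 in its library.

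In the edgeR fit over all 73 testable miRNAs, the log2 fold change of high against low dose for pxy-mir-278-5p stood at 0.43 ± 0.16 (SE) for the 6 h libraries. For the 24 h libraries it stood at -1.41 ± 0.16, a 2.66-fold lower level. The change of the dose difference from 6 h to 24 h was -1.85 ± 0.23. The median over all 73 was -0.01 at 6 h and -0.16 at 24 h. By size, the dose difference of the 5p arm ranked 20 of 73 at 6 h and 4 of 73 at 24 h. The 24 h value is among those that led to the choice of this miRNA and supports nothing further.

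For pxy-mir-278-3p the same fit gave -0.33 ± 0.16 (SE) at 6 h and, at 24 h, -0.26 ± 0.14 with TMM but 0.13 with upper quartile factors, a scaling that took the median over the 73 miRNAs from -0.16 to 0.21. Its change of the dose difference was 0.07 ± 0.21. By size, the dose difference of the 3p arm ranked 35 of 73 at 6 h and 39 of 73 at 24 h. For the 5p arm the sign at each time was the same under all 4 scalings, with 0.31 to 0.62 at 6 h and -1.41 to -1.02 at 24 h.

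The 6 h values leaned on few libraries. The log2 dose difference of the 5p arm at 6 h was 0.27 without high-dose replicate 3, 0.65 without low-dose replicate 2, and 0.76 without both of the shallowest libraries. That of the 3p arm was -0.54 without high-dose replicate 3 and -0.19 without high-dose replicate 2. At 24 h, leaving out any library left the 5p value between -1.46 and -1.24. The 3p value at 24 h then lay between -0.23 and -0.06, each nearer 0 than with all libraries, and was -0.06 without low-dose replicate 2 at 24 h.

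**Figure D2:**
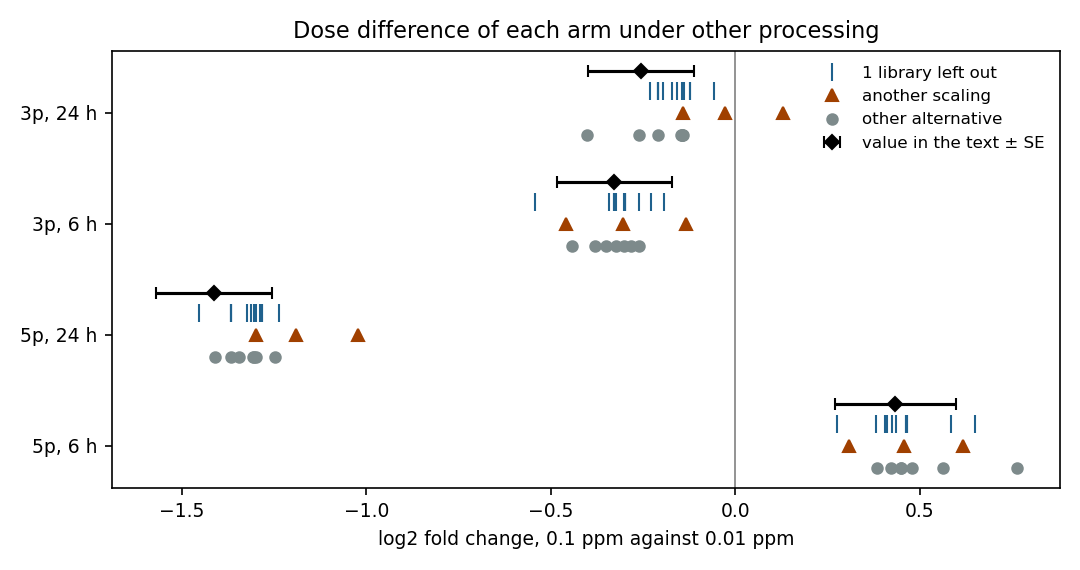
Log2 fold change of high against low dose (horizontal axis) for each arm and time, as given in the text (diamonds ± SE), with each library left out in turn (ticks), with other scaling factors (triangles) and under the other alternatives (circles). The 5p values keep their sign in every case shown, whereas the 3p value at 24 h runs from -0.40 to 0.13 and crosses 0 with upper quartile factors.

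Counting both arms together, the low-dose and high-dose groups held 14240 ± 1124 and 15900 ± 2637 CPM (SD, n = 3) of mir-278 at 6 h. The values at 24 h were 21820 ± 1089 and 10910 ± 1060 CPM. The groups at 24 h did not overlap, with 21160 CPM in the lowest low-dose and 11850 CPM in the highest high-dose library.

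The ratio of 5p to 3p counts compares the arms inside a library and needs no scaling between libraries. It was above 1 in all 12 libraries. In 2 of them the 95% Wilson interval of the ratio included equal counts, with 1.06 (0.866 to 1.30) in high-dose replicate 2 at 24 h and 1.21 (0.962 to 1.52) in low-dose replicate 3 at 6 h. In low-dose larvae at 24 h the ratios were 2.78, 2.67 and 2.76, a mean of 2.74 ± 0.059 (SD, n = 3). In high-dose larvae at 24 h they were 1.41, 1.06 and 1.21, a mean of 1.23 ± 0.17. The groups were clearly apart. Expressed as the share of mir-278 counts in the 5p arm, the lowest low-dose library had 72.8% (95% Wilson interval 69.7% to 75.6%) and the highest high-dose library 58.4% (53.2% to 63.5%). These intervals are computed within a library and do not cover the spread between replicates. They may also be too narrow for counting error, as reads are not independent molecules.

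At 6 h the ratio was the lower one in low-dose larvae. There the libraries had ratios of 1.32, 2.22 and 1.21 (1.58 ± 0.55, SD, n = 3). The high-dose libraries had ratios of 2.00, 3.29 and 2.41 (2.57 ± 0.66). The ranges overlapped, because low-dose replicate 2, with 113 counts of 5p and 51 of 3p, lay above high-dose replicate 1. Its 5p share was 68.9% with a wide Wilson interval of 61.5% to 75.5%.

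Ordered by mean, low dose at 24 h and high dose at 6 h were highest and overlapped, high dose at 6 h and low dose at 6 h overlapped, and so did low dose at 6 h and high dose at 24 h, the lowest. On the log2 scale, the ratio differed between high and low dose by 0.72 ± 0.26 (SE) at 6 h and by -1.17 ± 0.26 at 24 h, a change of -1.89 ± 0.36. Without both of the shallowest libraries the 6 h difference was 1.15 and the change -2.32. With rows under 10 counts left out, which bears on the row minimum of 5 in the files, the differences were 0.70 at 6 h and -1.20 at 24 h.

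**Figure D3:**
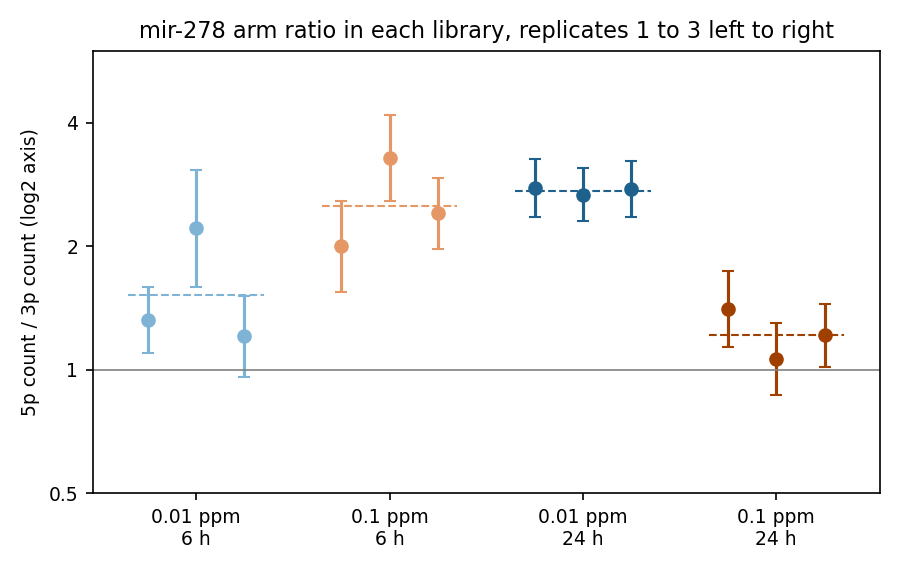
Ratio of pxy-mir-278-5p to pxy-mir-278-3p counts in each library on a log2 axis. Bars are 95% Wilson intervals from the counts, dashed lines are geometric means of the 3 libraries of a group, and the grey line marks equal counts. The 3 low-dose libraries at 24 h lie at 2.67 to 2.78 and the 3 high-dose libraries at 24 h at 1.06 to 1.41.

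Seen over time, the group means differed in opposite directions at the 2 doses. From 6 h to 24 h the log2 level of pxy-mir-278-5p differed by 0.92 ± 0.16 (SE) in low-dose larvae, 1.89-fold higher at 24 h, and by -0.93 ± 0.16 in high-dose larvae, 1.90-fold lower at 24 h. In either dose the 6 h and 24 h libraries did not overlap. The log2 arm ratio differed by 0.84 ± 0.26 at the low and by -1.04 ± 0.26 at the high dose, also without overlap. For pxy-mir-278-3p the time differences were 0.04 ± 0.15 and 0.11 ± 0.15. Within each dose every library total at 24 h exceeded every total at 6 h. The part of depth in these values was not tested.

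Averaged over doses, neither arm passed the test for time. Of the 73 miRNAs tested, 8 (11.0%) passed, 6 of them higher (8.22%) and 2 lower (2.74%) at 24 h. The log2 time difference was -0.003 ± 0.11 (SE) for pxy-mir-278-5p (adjusted p = 0.987, unadjusted p = 0.978, edgeR's quasi-likelihood test, Benjamini-Hochberg adjusted over 73 miRNAs), an average of the opposite values at the 2 doses. For pxy-mir-278-3p it was 0.07 ± 0.11 (adjusted p = 0.797, unadjusted p = 0.50, edgeR). DESeq2 gave adjusted p = 0.930 for 5p and 0.938 for 3p, with 11 calls in all. The averaged log2 arm ratio differed by -0.10 ± 0.18 (two-sided exact permutation test within doses, 400 regroupings, smallest possible p = 0.005, p = 0.795, adjusted p = 0.795 over 7 precursors).

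Each arm filled several rows in a file, and what sets the rows of a name apart is not stated in the sources used here. The 5p arm had 4 to 11 rows per library and its highest row held 62.0% to 77.0% of its counts. At 24 h this share was 68.7%, 67.7% and 68.3% in low-dose and 76.6%, 70.0% and 62.6% in high-dose libraries, so the groups overlapped. Both parts of the raw 5p count were lower at the high dose at 24 h. The highest row had 370, 432 and 398 counts at the low and 154, 133 and 171 at the high dose. The remaining rows together had 169, 206 and 185 against 47, 57 and 102. These counts are not scaled, and library totals were 37741 to 41214 at the low and 28682 to 40388 at the high dose. With TMM scaling, the highest row alone gave a log2 dose difference of -1.25 ± 0.19 (SE) at 24 h. The low-dose libraries at 24 h listed 9 to 11 rows of 5p and all other libraries 4 to 8. They also held the most 5p counts, 539 to 638 against 113 to 325 elsewhere. In low-dose replicate 1 at 24 h, 6 of the 11 rows were under 10 counts, near the row minimum of 5. The part of depth in the number of rows was not tested.

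The 3p arm had 2 rows in each 6 h library and 3 or 4 at 24 h, of which the first and second held nearly all counts. The third row held only 5 to 11 counts. At 24 h the second row stood at 0.443, 0.465 and 0.519 of the highest row in low-dose libraries. In high-dose libraries it stood at 0.722, 0.647 and 0.903 of the highest row. These did not overlap, while at 6 h the ranges, 0.342 to 0.627 at the low and 0.378 to 0.977 at the high dose, did. Whether the same row was highest in each library cannot be read from the files. With only the highest row of each arm, the ratio of 5p to 3p at 24 h was 2.79 to 2.95 at the low and 1.30 to 1.95 at the high dose. The log2 dose difference of the ratio was then -0.86 at 24 h and 1.01 at 6 h.

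**Figure D4:**
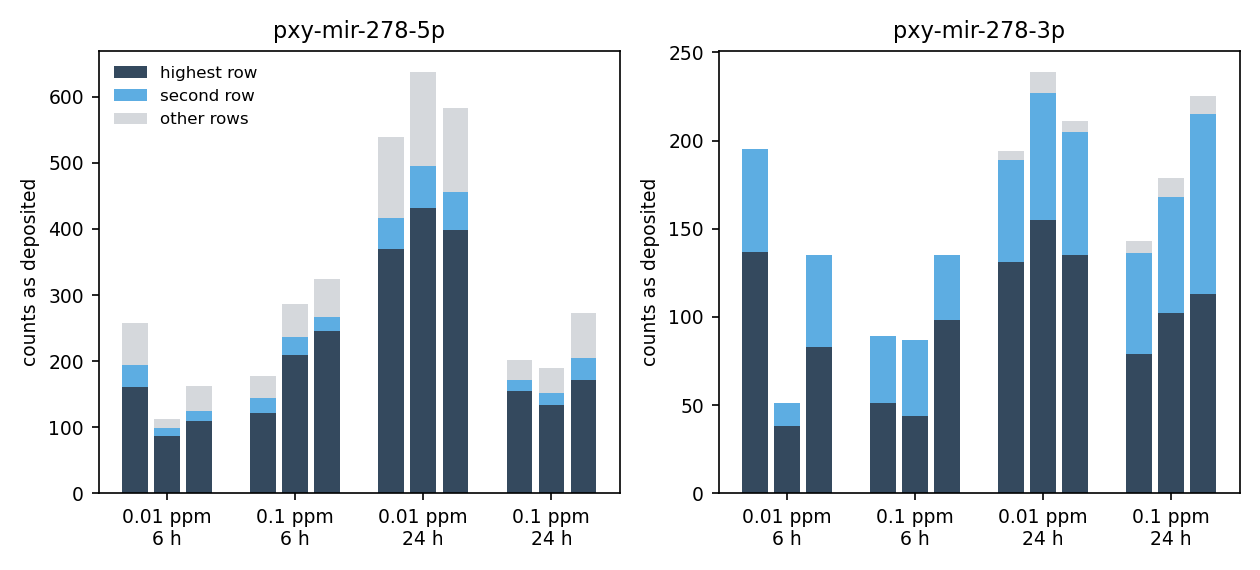
Deposited counts of pxy-mir-278-5p (left) and pxy-mir-278-3p (right) in each library, replicates 1 to 3 from left to right in a group, split into the highest row, the second row and all other rows of the name. Vertical axes differ between the panels. At 24 h the 5p bars reach 539 to 638 at 0.01 ppm and 190 to 273 at 0.1 ppm, and the second row of 3p is a larger part of the bar at 0.1 ppm.

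Of 23 precursors with both arms among the names, 7 had both arms listed in every library. At 24 h the log2 dose difference of the arm ratio was -1.17 for mir-278. It was -0.69 ± 0.19 (SE) for pxy-mir-281 and 0.65 ± 0.44 for pxy-mir-8495, whose rarer arm fell to 7 counts in a library. The other 6 precursors ran from -0.69 to 0.65 at 24 h and from -0.89 to 0.15 at 6 h. The median over all 7 was -0.06 at 24 h and 0.03 at 6 h. Across time the 3 largest averaged differences of the ratio belonged to pxy-mir-14b (-0.89 ± 0.16), pxy-mir-750 (-0.57 ± 0.24) and pxy-mir-308 (-0.26 ± 0.34). Of the 7 precursors 0 (0.0%) passed the exact permutation test after adjustment, and 2 had an unadjusted p under 0.05.

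**Figure D5:**
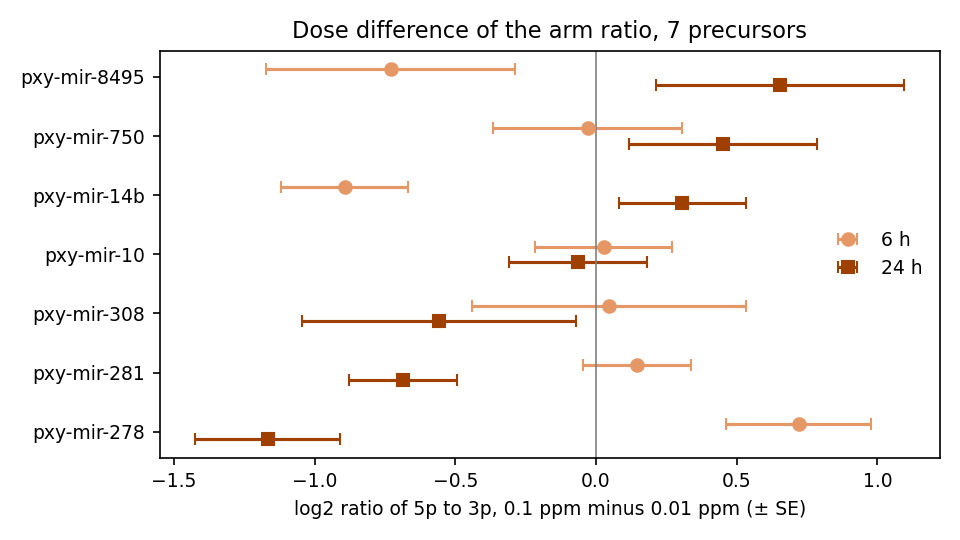
Difference between high and low dose in the log2 ratio of 5p to 3p counts (horizontal axis, ± SE) at 6 h (circles) and 24 h (squares) for the 7 precursors with both arms in all 12 libraries. For mir-278 the points lie at 0.72 and -1.17, and the other precursors lie between -0.89 and 0.65.

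The names whose profile lay nearest to each arm were found from the root mean square difference of mean-centred log2 CPM over the 12 libraries, among 72 others. Nearest to pxy-mir-278-5p, whose own root mean square deviation was 0.55, were pxy-miR-279b-3p at 0.32, pxy-miR-281-5p at 0.40 and pxy-mir-184-3p at 0.41. In low-dose larvae the level of pxy-miR-279b-3p was 31170 ± 2745 CPM (SD, n = 3) after 6 h and 37960 ± 815 CPM after 24 h. In high-dose larvae it was 35450 ± 3246 and 24220 ± 2826 CPM. For pxy-miR-281-5p, the midgut and tubule marker named above, the low-dose means were 122300 ± 3393 CPM after 6 h and 158600 ± 3263 CPM after 24 h. Its high-dose means were 125400 ± 21510 and 103600 ± 5905 CPM. The 4 group means of pxy-miR-279b-3p and of pxy-miR-281-5p stood in the same order as those of the 5p arm, with a smaller spread between groups. For pxy-miR-281-5p the 6 h means differed by less than the SD of either group. The means of pxy-mir-184-3p had another order. They were lowest in low-dose larvae after 6 h (68530 ± 17160 CPM), below high-dose larvae after 24 h (77030 ± 12530 CPM). With TMM scaling the log2 dose difference of pxy-miR-281-5p at 24 h was -0.61 ± 0.12 (SE), while that of its other arm, pxy-miR-281-3p, was 0.07 ± 0.15 and that of the muscle marker pxy-mir-1-3p was 0.45 ± 0.38. The part of midgut and tubule RNA in the 5p values was not tested.

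Nearest to pxy-mir-278-3p, with its own deviation of 0.21, were pxy-mir-279c-3p at 0.12, pxy-miR-306-5p at 0.18 and pxy-mir-276-3p at 0.19. In low-dose larvae the level of pxy-mir-279c-3p was 7165 ± 704 CPM (SD, n = 3) after 6 h and 7126 ± 482 CPM after 24 h. In high-dose larvae it was 6181 ± 987 and 6163 ± 466 CPM. None of these neighbours was the other arm of mir-278. All values come from the same 12 libraries and one scaling, which the profiles share.

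Other miRNA families that act on insulin signalling, growth or energy metabolism in Drosophila were listed together: bantam, let-7, mir-8, mir-9a, mir-14, mir-33, mir-277 and mir-305. Of these 8 families 4 had a listed name, with 9 names in all and 8 tested. In the time difference averaged over doses 1 rose, 1 fell and 6 did not pass, beside the 11.0% of all tested miRNAs. The arm pxy-let-7-5p, of a miRNA that times development in response to ecdysone, rose (log2 0.59 ± 0.13 SE, adjusted p = 0.00777, edgeR) and pxy-miR-14b-5p, the less abundant arm of a family that acts on fat metabolism in Drosophila, fell (-0.86 ± 0.17, adjusted p = 0.00399, edgeR). The list's median was -0.04 and that of all 73 was 0.05. In Drosophila, pxy-miR-277-3p's family acts on the breakdown of branched-chain amino acids. The dose differences of pxy-miR-277-3p were -0.42 at 6 h and 0.72 at 24 h, opposite in sign at each time to those of pxy-mir-278-5p. For pxy-miR-14b-5p the values were -0.96 ± 0.23 (SE) at 6 h and 0.04 ± 0.24 at 24 h. For pxy-mir-14a-3p they were 0.04 ± 0.14 and -0.22 ± 0.13. The 24 h value of pxy-miR-14b-5p and the 6 h value of pxy-mir-14a-3p lay within their SE of 0, so their signs are not settled. Each other tested name of the list kept 1 sign at both times, though the 6 h value of pxy-mir-14b-3p was only -0.01 ± 0.14. The sign was positive for pxy-let-7-5p (0.38 and 0.84). It was negative for the other let-7 arm, pxy-let-7-3p (-1.81 ± 1.12 and -0.46 ± 0.90).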

How the data were processed

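Per the labels' protocols, whole-larva RNA went into TruSeq small RNA libraries that were read on an Illumina HiSeq. The authors deposited raw counts per miRNA name, as the headers show. The sources used here do not say how reads were mapped, to which miRNA set, or why no row is under 5. The labels name no molecular identifiers, and p-values measure the spread between the samples labelled biological replicates. Sequences and positions of mir-278 are not shown.

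The rows of each name were added up. All names were fitted with edgeR 4.0.16 in R 4.3.3 (filterByExpr with a minimum count of 10, TMM, glmQLFit and glmQLFTest, 4 group means, 12 libraries, Benjamini-Hochberg over 73 names, threshold 0.05). The SE is the log2 fold change over the root of F. Arm ratios were compared as log2 ratios with the pooled SD within groups, by exact permutation in Python 3.11.15 where tested. Log2 CPM used a prior count of 2. DESeq2 1.42.0, other scalings, no filter, the highest row, rows of at least 10 counts, a replicate block and the omission of libraries were tried.

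Members, lists and tests were chosen with earlier results of these data known. The names given were both arms, the 3 nearest profiles to each, the precursors with the 3 largest ratio differences for dose at 24 h and for time, and members of the insulin and energy list that passed. Exceptions named after their values were seen are pxy-miR-277-3p, pxy-mir-14a-3p, pxy-mir-14b-3p, pxy-let-7-3p and the marker miRNAs' listing. The 24 h dose differences of pxy-miR-281-3p and pxy-mir-1-3p were likewise given outside these rules.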

Additional observations from a re-analysis of the deposited data

Results flagged for a closer look

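From 6 h to 24 h, the mean log2 CPM of pxy-mir-278-5p differed by 0.90 at the low dose and by -0.91 at the high dose, and in each dose all 3 libraries at 24 h lay on the same side of all 3 at 6 h. The log2 ratio of pxy-mir-278-5p to pxy-mir-278-3p did likewise, differing by 0.84 at the low and by -1.04 at the high dose. What drew attention in both cases is that the 6 h and 24 h libraries of a dose did not overlap, and that their order was opposite at the other dose. The difference between doses was not tested here, because it is the pattern for which this miRNA was chosen.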

How the results depend on the processing

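For the arms, the ratio and the number of miRNAs called, 257 recomputed values were compared with those given, and 229 were counted as kept. Some of these could not change. For the ratio, leaving out a library of one time cannot move the dose difference at the other time. Nor can the replicate block move any difference of the ratio, as the groups are balanced. Tested values had to keep their side of the threshold and direction. Untested values had to move by less than the spread between replicates. The number of miRNAs called was judged by a fold limit instead, which 16 of 21 recomputed numbers met. With library totals the change of the dose difference was -1.50 for 5p and 0.43 for 3p, and the 3p dose difference at 24 h was -0.028. With upper quartile factors the dose difference was -1.02 for 5p at 24 h, and -0.13 and 0.13 for 3p at 6 h and 24 h, with a change of 0.26 for 3p and an averaged time difference of 0.085 for 5p. The time difference, near 0 throughout, changed sign for 3p with the highest row (-0.032) and for 5p with rows of at least 10 counts (0.031), where 3 miRNAs passed in place of 8. Without both of the shallowest libraries, chosen after seeing the data, the dose difference at 6 h was 0.76 for 5p and 1.15 for the ratio, the change of the ratio was -2.32, and 15 miRNAs passed for time. The causes were not tested.

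With each library left out in turn, the averaged time difference ran from -0.14 to 0.055 for 5p, from -0.073 to 0.10 for 3p and from -0.18 to 0.036 for the ratio, changing sign for the ratio without low-dose replicate 2 at 6 h. For 3p the dose difference ran from -0.54 to -0.19 at 6 h and from -0.23 to -0.059 at 24 h, and its change from -0.016 to 0.34. The number passing for time ran from 4, without low-dose replicate 3 at 24 h, to 12, without low-dose replicate 2 at 6 h, and was 5 without low-dose replicate 3 at 6 h or low-dose replicate 1 at 24 h. The sign of the time difference also changed in 3 of these 12 fits for each arm.

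Replicate numbers recur across groups, but taken over all groups libraries with the same number did not deviate together. Of 18 such pairs 5 had a correlation over 0.1, the median was -0.08, and 4 of 12 libraries correlated best with their own number. Between the doses at 24 h, however, same-number pairs correlated at 0.06, 0.32 and 0.35, and the other pairs at -0.33 to -0.015. A pairing within 24 h thus remains possible. With the replicate block 7 miRNAs passed for time, and the 5p dose difference at 24 h was -1.41. Counts of 51 to 239 of 3p per library limit the precision of the ratio.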
